A study of Homo sapiens with 6 samples.

Results

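Long noncoding RNA genes were picked out on Affymetrix arrays of NB4 cells by their symbols: names that start with LINC and a digit, start with MIR and end with HG, start with SNHG, or end with -AS1, -AS2 or -IT1. Of 19775 genes with a probe set of 1 gene, 1672 had such a name, and 105 of these reached 5.74 on the log2 scale, the 75th percentile of all values, on at least 1 of the 6 arrays. These 105 members were 63 antisense genes, 31 LINC genes, 5 small nucleolar RNA host genes (SNHG), 4 microRNA host genes and 2 intronic transcripts (-IT1). LINC stands for long intergenic noncoding RNA, and the 31 were taken by that name, not by position. The gene table gave the type lncRNA for 103 of the 105 and did not hold LINC01296 and TNRC6C-AS1.

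NB4 cells come from a human acute promyelocytic leukaemia and carry its fusion gene, PML-RARA. All-trans retinoic acid (ATRA) binds retinoic acid receptors and drives such cells toward neutrophils. The groups were NB4 cells in 1e-06 M ATRA for 4, 12, 24, 48 and 72 h and untreated NB4 cells (0 h), with 1 array each. With 1 array per time, no difference between a pair of arrays has a replicate check. All groups were the same line and shared the fusion gene and the medium, and hours in ATRA could not be told apart from hours in culture.

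Long noncoding RNAs are transcripts that are often spliced and polyadenylated but are not known to be translated into a protein. Antisense members are transcribed from the strand opposite a protein-coding gene, often from a shared or neighbouring promoter, and some act on that gene. Host genes are known for what lies in their introns or exons: SNHG genes release small nucleolar RNAs, which guide the modification of ribosomal RNA, and microRNA host genes release microRNA hairpins. The names LINC, SNHG and -AS record position or content, and most of these genes have no settled function.

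RefSeq promoter sequences (GRCh38.p14, 250 bases before to 50 bases from the transcript start) were at hand for 87 of the 105 members. The core of the interferon-stimulated response element, written here as GAAA followed by any 2 bases and GAAA again, was searched on both strands. It occurred in 5 member promoters, or 5.75%, against 3.57% of 35116 promoters in the table. The 3 that rose over the time course are shown because they include the antisense partner of an immunoproteasome gene, and capitals mark the pattern.
ANXA2R-AS1, chr5:43041884-43042183, plus strand: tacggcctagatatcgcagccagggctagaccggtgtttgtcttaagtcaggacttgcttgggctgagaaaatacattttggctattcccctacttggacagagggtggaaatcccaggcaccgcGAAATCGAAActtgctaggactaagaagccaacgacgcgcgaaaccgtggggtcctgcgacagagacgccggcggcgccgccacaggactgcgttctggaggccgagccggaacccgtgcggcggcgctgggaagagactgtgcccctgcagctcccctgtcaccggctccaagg
PSMB8-AS1, chr6:32843836-32844135, plus strand: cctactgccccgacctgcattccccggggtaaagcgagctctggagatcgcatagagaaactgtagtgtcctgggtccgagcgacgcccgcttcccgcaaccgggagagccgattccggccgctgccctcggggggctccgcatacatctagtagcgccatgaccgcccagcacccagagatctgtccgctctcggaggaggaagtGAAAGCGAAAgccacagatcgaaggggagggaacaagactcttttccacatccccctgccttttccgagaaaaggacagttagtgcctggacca
TFAP2A-AS1, chr6:10412068-10412367, plus strand: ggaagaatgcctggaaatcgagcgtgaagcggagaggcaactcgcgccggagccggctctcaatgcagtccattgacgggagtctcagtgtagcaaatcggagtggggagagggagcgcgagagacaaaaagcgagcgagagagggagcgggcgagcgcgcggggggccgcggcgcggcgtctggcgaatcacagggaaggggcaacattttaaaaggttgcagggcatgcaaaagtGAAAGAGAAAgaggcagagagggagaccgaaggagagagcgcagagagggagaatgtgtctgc
The pattern began 125, 44 and 13 bases before the start of ANXA2R-AS1, PSMB8-AS1 and TFAP2A-AS1, in that order. The other 2 members with it, ITPKB-IT1 and LINC01138, had no call. Of the 87 member promoters, 15 were of members that rose and 11 of members that fell. Whether the pattern goes with a rise was not tested. A match is a description of the sequence and says nothing of which factor binds there.

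The start regions of the 5 SNHG members are shown because such host genes, like those of ribosomal proteins, often begin with a C followed by a run of pyrimidines. Each line runs from 10 bases before the start to 40 from it, and capitals mark the run of C and T that begins at the first transcribed base.
SNHG4, chr5:139274091-139274140, plus strand: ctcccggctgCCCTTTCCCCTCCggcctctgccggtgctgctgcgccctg
SNHG19, chr16:2155319-2155368, minus strand: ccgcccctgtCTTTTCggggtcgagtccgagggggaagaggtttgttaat
SNHG17, chr20:38435289-38435338, minus strand: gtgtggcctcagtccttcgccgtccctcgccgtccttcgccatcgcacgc
SNHG32, chr6:31834906-31834955, plus strand: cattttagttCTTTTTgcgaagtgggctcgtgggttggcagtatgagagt
SNHG33, chr3:183447598-183447647, plus strand: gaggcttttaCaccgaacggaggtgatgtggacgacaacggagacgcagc
SNHG4 began with a run of 13 pyrimidines, and SNHG19 and SNHG32 with runs of 6. SNHG33 began with a single C, and SNHG17 with an A, so neither has such a run at the start given in RefSeq. A run of at least 5 pyrimidines that starts with C was found in 3 of 87 member promoters (3.45%) and in 4.07% of all promoters. The members with such a run were SNHG4 and SNHG19, which fell, and SNHG32, which had no call.

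The 4 microRNA host members hold 9 mature microRNAs in RefSeq, with 9 different seeds. One arm is shown for each hairpin, with the seed (bases 2 to 8) in capitals, to show what these hosts carry. The microRNAs themselves were not measured on these arrays.
hsa-miR-1-3p, in MIR1-1HG, chr20:62554351-62554372, plus strand: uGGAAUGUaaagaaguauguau
hsa-miR-133a-3p, in MIR1-1HG, chr20:62564970-62564991, plus strand: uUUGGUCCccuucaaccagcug
hsa-miR-1915-3p, in MIR1915HG, chr10:21496576-21496595, minus strand: cCCCAGGGcgacgcggcggg
hsa-miR-210-3p, in MIR210HG, chr11:568112-568133, minus strand: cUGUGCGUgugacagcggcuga
hsa-miR-31-5p, in MIR31HG, chr9:21512158-21512178, minus strand: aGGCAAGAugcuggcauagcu

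Values are log2 levels from robust multi-array averaging (RMA). Each gene was represented by its probe set of highest mean, and levels of different genes are not compared, since probe sets differ in their brightness. The trend over time order (untreated, 4, 12, 24, 48 and 72 h as steps 0 to 5) was fitted with limma on all 13594 genes that reached 3.66, the median over the whole table, on some array. Genes counted as called where the Benjamini-Hochberg adjusted p, over those genes, was under 0.05. "Rose" and "fell" are used only of such calls.

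The members were chosen by their highest level, so a gene that passed on only some arrays had to differ between them. Of the 105, 41 were at or above 5.74 on all 6 arrays, 64 on some arrays only and 16 on a single array. Just inside the threshold were FUT8-AS1 with a maximum of 5.75, and PAXIP1-AS2 and NOP14-AS1 with 5.76 each. Just outside it were PRKCQ-AS1 and MIR550A3HG with 5.71 and LINC00205 with 5.69.

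The trend fit called 20 members as rising and 14 (13.3%) as falling, and 71 had no call. Over all genes fitted, 8.33% rose and 9.86% fell. Over the 8628 genes that pass the members' own level threshold, 11.7% rose and 13.9% fell, so the share that fell was close to this background. Of the 20 rising members, 19 were below the threshold in untreated cells and passed it only through later arrays. How many rising background genes did so was not counted. The cause of the excess among rising members was not tested, and it is not read as a property of noncoding genes. An unadjusted p under 0.05 was reached by 51 members.

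The calls were spread unevenly over the kinds of genes: 16 antisense members rose and 5 fell, 3 LINC members rose and 6 fell, and 3 of the 5 SNHG members fell. Of the intronic members, NPTN-IT1 rose and ITPKB-IT1 had no call. None of the 4 microRNA hosts was called. The unevenness itself was not tested. Probe sets of several genes were not used, and 41 of them at the threshold had a name that fits the rule. Of these 41, 21 also held the name of a small nucleolar RNA or a microRNA. Host genes read only by such probe sets are missing from the SNHG and microRNA host counts.

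**Figure D1:**
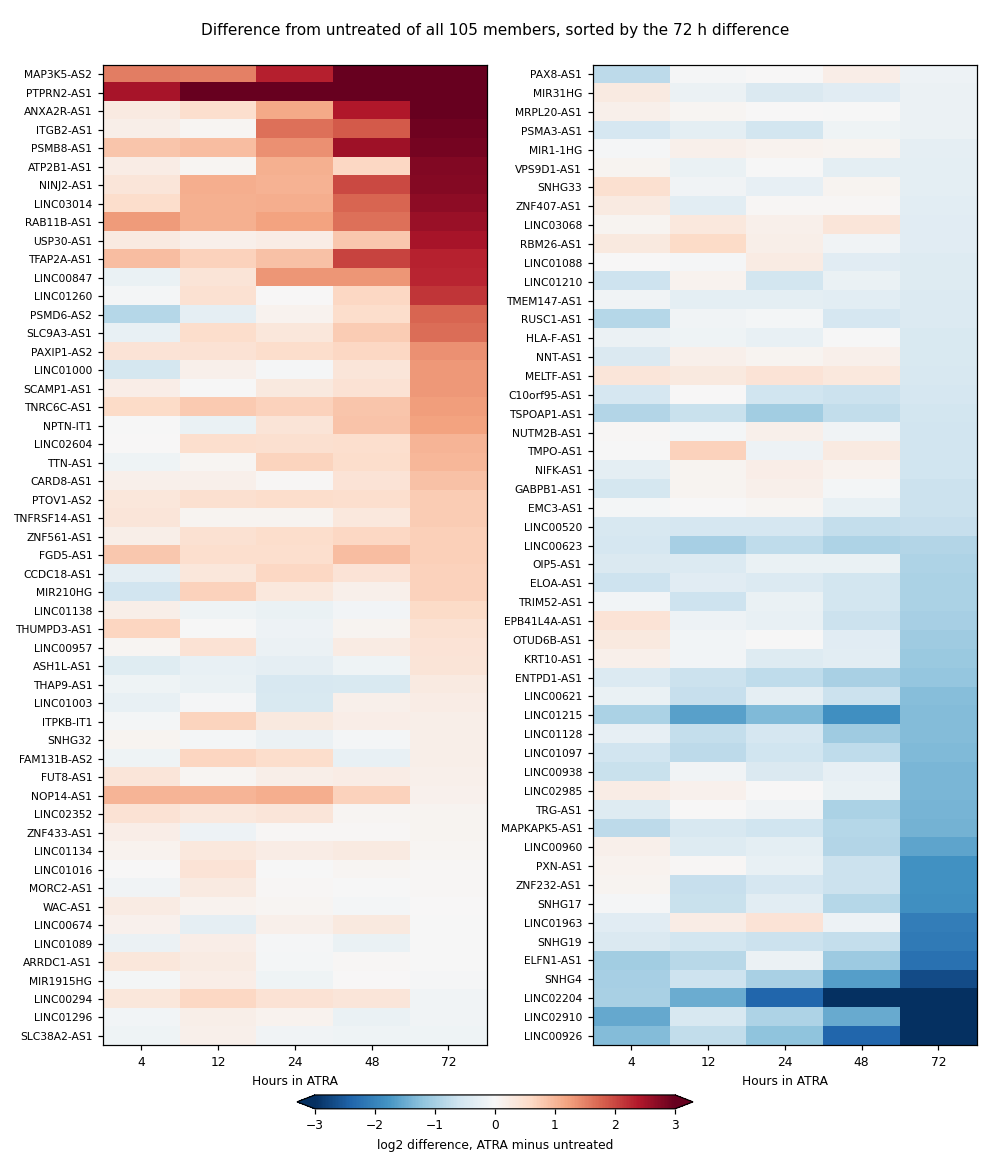
Log2 difference from the untreated array (colour, ATRA minus untreated) of all 105 members at 4, 12, 24, 48 and 72 h, sorted by the 72 h difference. MAP3K5-AS2, with 4.92 at 72 h, stands at the top and LINC00926, with -3.50, at the bottom, and the colour scale is cut at 3 and -3.

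At 4 h, 4 members (3.81%) were 2-fold or more higher than in untreated cells and 3 (2.86%) were lower. The background was 2.45% and 2.33% of genes at the same level threshold (1.74% and 1.81% of all genes fitted). The higher ones were PTPRN2-AS1, MAP3K5-AS2, RAB11B-AS1 and NOP14-AS1, and the lower ones LINC02910, LINC00926 and ELFN1-AS1. At 12 h, 6 were higher and 2 lower (background 3.40% and 2.47%, and 2.30% and 1.93% of genes fitted). At 24 h, 11 were higher and 4 lower (4.89% and 2.40%, and 3.35% and 1.99%). At 48 h, 10 were higher and 7 lower (8.54% and 5.71%, and 5.83% and 4.49%).

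At 72 h, 21 members were 2-fold or more higher, or 20.0%, and 23 were lower, or 21.9%. The background was 15.0% and 17.1% of genes at the same threshold (10.9% and 12.2% of genes fitted). The median difference of the members stayed near 0, at -0.01, 0.05, 0.02, -0.00 and -0.13 on the log2 scale at 4, 12, 24, 48 and 72 h. Over genes at the same threshold it was 0.03, -0.17, -0.04, -0.06 and -0.16. For 44 members the largest step between neighbouring times was the one to 72 h, for 24 it was the one to 4 h, and the steps to 12, 24 and 48 h were largest in 18, 9 and 10.

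**Figure D2:**
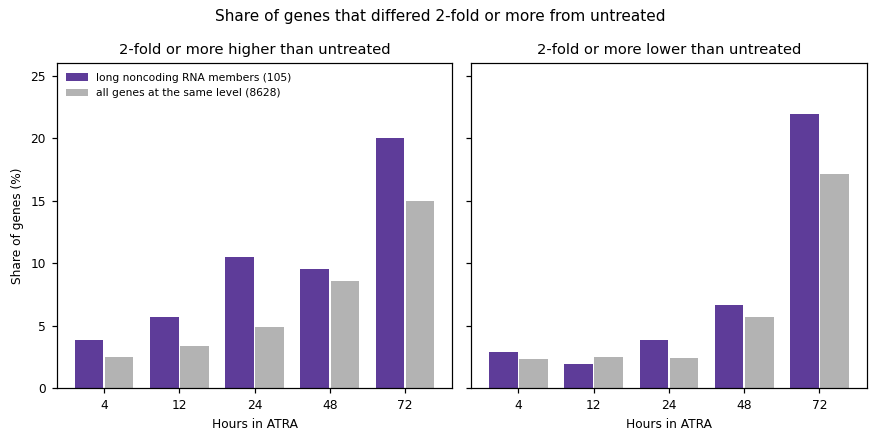
Share of genes (percent) that differed 2-fold or more from the untreated array, higher in the left panel and lower in the right, at each time in ATRA. Members (105, purple) stood at 20.0% higher and 21.9% lower at 72 h, and genes at the same level threshold (8628, grey) at 15.0% and 17.1%.

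The antisense members with the largest increases were MAP3K5-AS2 and PTPRN2-AS1. MAP3K5-AS2 lies opposite MAP3K5, which encodes the stress-activated kinase ASK1. Its log2 level was 4.64, 6.17, 6.15, 6.98, 8.43 and 9.56 at 0, 4, 12, 24, 48 and 72 h. The 72 h array was thus 30.3-fold above the untreated one, and MAP3K5-AS2 rose by 0.92 ± 0.08 per time step (SE over 6 arrays, limma adjusted p = 0.00084). Every ATRA array was above the untreated array.

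PTPRN2-AS1 lies opposite PTPRN2, which encodes a receptor-type phosphatase relative of secretory granules. It had the largest difference of any member at 4 h: its level was 3.93 untreated and 6.41, 7.41, 7.47, 8.05 and 8.28 from 4 to 72 h. PTPRN2-AS1 was 2.48 above untreated on the log2 scale at 4 h already, and 20.5-fold above it at 72 h (slope 0.76 ± 0.14, adjusted p = 0.012). With the level of the spiked bioC control as a covariate its adjusted p was 0.052.

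ANXA2R-AS1, opposite the annexin A2 receptor gene, climbed at every time. Its level was 5.51, 5.79, 6.01, 6.65, 7.92 and 9.16, which made the 72 h array 12.6-fold higher than the untreated one (slope 0.72 ± 0.09, adjusted p = 0.0036). The largest gains came after 24 h.

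ITGB2-AS1 lies opposite ITGB2, which encodes the beta chain of the leukocyte integrins. Its level was 4.71, 4.89 and 4.76 at 0, 4 and 12 h, and 6.37, 6.54 and 7.63 at 24, 48 and 72 h. On this probe set ITGB2-AS1 thus differed little until 12 h and was 7.55-fold above untreated at 72 h (slope 0.60 ± 0.09, adjusted p = 0.0052). A second probe set of this gene was 1.91 higher at 72 h, against 2.92 for the one shown. It was 0.43, 0.43, 0.86 and 0.63 above untreated at 4, 12, 24 and 48 h, so the timing differed between the probe sets.

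PSMB8-AS1 lies opposite PSMB8, which encodes a catalytic subunit of the immunoproteasome, the form of the proteasome that interferon induces. Its level was 5.59, 6.42, 6.53, 6.97, 8.13 and 8.45, with each time at or above the one before it. It rose 7.28-fold by 72 h (slope 0.57 ± 0.06, adjusted p = 0.0017).

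NINJ2-AS1, opposite the adhesion protein gene NINJ2, had levels of 4.15, 4.52, 5.24, 5.20, 6.13 and 6.90. It was 6.73-fold higher at 72 h than untreated (slope 0.53 ± 0.06, adjusted p = 0.0016). RAB11B-AS1 lies opposite the gene of RAB11B, a GTPase of recycling endosomes. Its levels of 5.62, 6.89, 6.67, 6.82, 7.27 and 8.20 held an early increase, 2-fold or more from 4 h onward, and a later one (slope 0.41 ± 0.08, adjusted p = 0.014). Both of its probe sets were 2.55 or more above untreated at 72 h.

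ATP2B1-AS1, opposite a plasma membrane calcium pump gene, stood at 5.42, 5.64, 5.48, 6.49, 6.05 and 8.19, so most of its increase was the step to 72 h (slope 0.46 ± 0.12, adjusted p = 0.035). TFAP2A-AS1, opposite the gene of transcription factor AP-2 alpha, stood at 4.23, 5.16, 4.91, 5.11, 6.25 and 6.53 (slope 0.43 ± 0.07, adjusted p = 0.0081). USP30-AS1, opposite the gene of a mitochondrial deubiquitinase, stood at 3.55, 3.82, 3.71, 3.77, 4.35 and 6.03. Its untreated level lay below 3.66, so USP30-AS1 was at least 5.16-fold higher at 72 h (slope 0.40 ± 0.11, adjusted p = 0.040).

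Another 7 antisense and intronic members rose by less. PSMD6-AS2, opposite a gene of the proteasome's regulatory particle, was 3.98 on the 4 h array against 4.84 untreated, and reached 6.57 at 72 h. SLC9A3-AS1 stood at 8.89 at 72 h against 7.22 untreated and was the rising member that lay above the threshold on all 6 arrays. PAXIP1-AS2, TNRC6C-AS1, NPTN-IT1 and TTN-AS1 were between 2.0-fold and 2.57-fold higher at 72 h, and ZNF561-AS1, with 6.13 against 5.41, was 1.65-fold higher. Their adjusted p-values lay between 0.021 and 0.041.

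Of the LINC members, 3 rose. LINC03014 had levels of 4.97, 5.50, 6.03, 6.05, 6.71 and 7.65 (6.43-fold at 72 h, slope 0.49 ± 0.06, adjusted p = 0.0025). LINC00847 stood at 4.64, 4.43, 5.03, 5.95, 5.95 and 6.92 (4.88-fold at 72 h, slope 0.48 ± 0.07, adjusted p = 0.0045). LINC02604 was 2.04-fold higher at 72 h, with 6.56 against 5.54 untreated (adjusted p = 0.029). LINC03014 and LINC00847 were 2-fold or more above untreated from 12 h and 24 h onward, in that order. LINC00847 overlaps the protein-coding gene ZFP62 in RefSeq, so it is intergenic by name only. ZFP62 stood at 5.90 at 72 h against 6.54 untreated, with no call (limma adjusted p = 0.21).

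**Figure D3:**
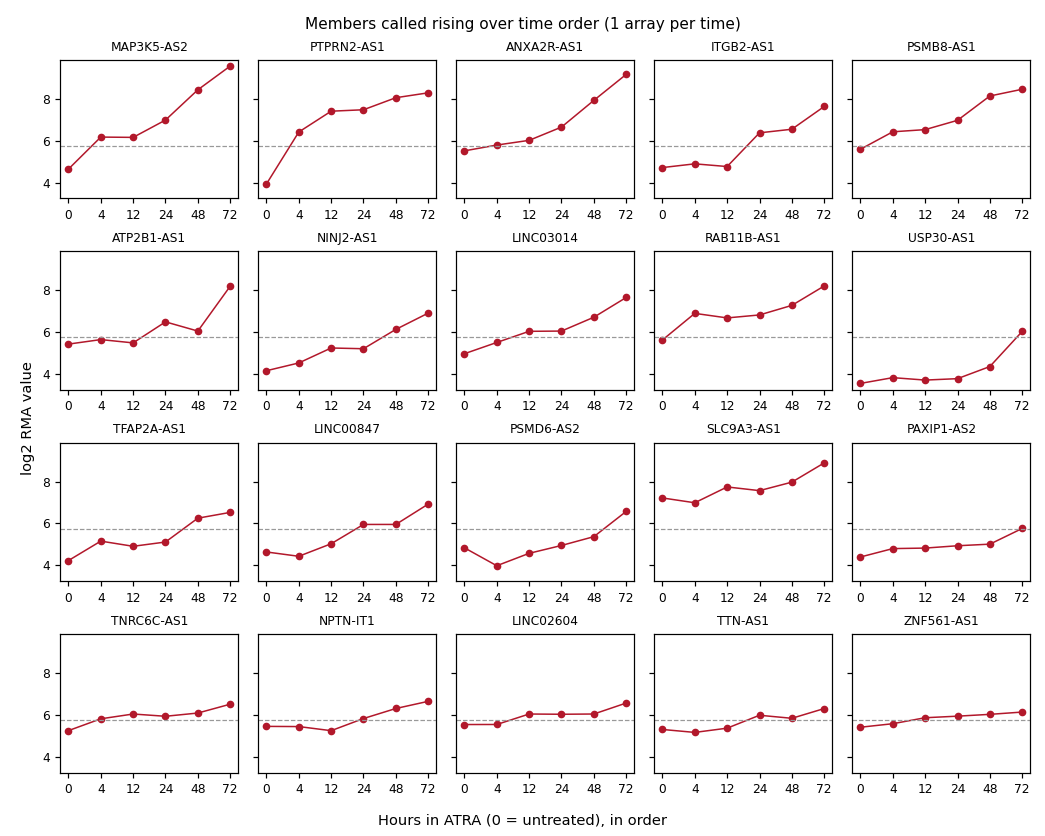
Log2 RMA level (vertical axis) of the 20 members that rose, in untreated cells (0) and at each time in ATRA, spaced by time order, with 1 array per point. The dashed line is the membership threshold of 5.74, and 19 of the 20 untreated points lie below it.

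Among the falling members, the LINC genes held the largest differences. LINC00926 had levels of 9.29, 7.98, 8.54, 8.08, 6.92 and 5.79, so that every ATRA array lay below the untreated one. It was 11.3-fold lower at 72 h than untreated (slope -0.60 ± 0.10, limma adjusted p = 0.0093). Its other kept probe set differed by -1.57 at 72 h, against -3.50 for the one shown, which was the widest spread between probe sets of a member.

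LINC02204 was lower at each time up to 48 h: its level was 6.70, 5.73, 5.22, 4.32, 3.54 and 3.63. With the last values below 3.66, it was at least 8.23-fold lower at 72 h (slope -0.65 ± 0.06, adjusted p = 0.0011). LINC02910 stood at 6.99, 5.44, 6.50, 6.07, 5.47 and 3.88, with a dip at 4 h that was smaller at 12 h. Its adjusted p was 0.0495 (slope -0.45 ± 0.13), just past the threshold.

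The other falling LINC members were LINC00960, LINC01097 and LINC01128. They were 3.0-fold, 2.50-fold and 2.47-fold lower at 72 h than untreated. LINC01128 fell by 0.25 ± 0.05 per step (adjusted p = 0.012). With the probe sets of each gene averaged, LINC01128 and LINC02910 had no call (limma adjusted p = 0.10 and 0.15).

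The SNHG members that fell were SNHG4, SNHG19 and SNHG17. SNHG4, which had the long pyrimidine run at its start, stood at 6.00, 5.02, 5.39, 5.03, 4.36 and 3.33 and was at least 5.08-fold lower at 72 h (slope -0.45 ± 0.08, adjusted p = 0.0099). SNHG19 stood at 8.96, 8.52, 8.40, 8.32, 8.25 and 6.83 (slope -0.33 ± 0.08, adjusted p = 0.029). SNHG17 stood at 10.59, 10.55, 9.93, 10.27, 9.73 and 8.76 (slope -0.32 ± 0.07, adjusted p = 0.018). All 3 had their lowest level at 72 h.

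The remaining SNHG members had no call. SNHG32 stood at 9.52, 9.60, 9.47, 9.35, 9.48 and 9.70 (adjusted p = 0.90). SNHG33 stood at 7.27, 7.74, 7.17, 7.02, 7.35 and 6.97 (adjusted p = 0.42). Their 72 h values were within 0.30 of untreated on the log2 scale.

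SNHG4 overlaps MATR3, a gene of a nuclear RNA-binding protein, in RefSeq. MATR3 stood at 8.71, 8.50, 8.18, 8.0, 7.36 and 6.29 and fell too (slope -0.45 ± 0.07, adjusted p = 0.0063). Whether the SNHG4 probe set also reads transcripts of MATR3 was not tested. SNHG19 was read by a probe set of the x_at type, which can share probes with other genes, and it has no value without such probe sets.

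Antisense members that fell were ZNF232-AS1, PXN-AS1, ENTPD1-AS1, KRT10-AS1 and EPB41L4A-AS1. PXN-AS1 had levels of 6.79, 6.88, 6.82, 6.57, 6.14 and 4.97, with its decrease after 24 h (slope -0.33 ± 0.08, adjusted p = 0.032). ENTPD1-AS1 had levels of 5.94, 5.54, 5.29, 5.19, 4.96 and 4.77, lower at each time than at the one before (slope -0.22 ± 0.04, adjusted p = 0.0097). Of its 3 probe sets only this 1 was kept, and only the untreated array reached the threshold. With its probe sets averaged, ENTPD1-AS1 did not enter the fit. ZNF232-AS1 was 3.54-fold lower at 72 h than untreated, KRT10-AS1 2.15-fold and EPB41L4A-AS1 2.01-fold. EPB41L4A-AS1 stayed above the threshold on all 6 arrays, with 7.96 at 72 h against 8.96 untreated.

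**Figure D4:**
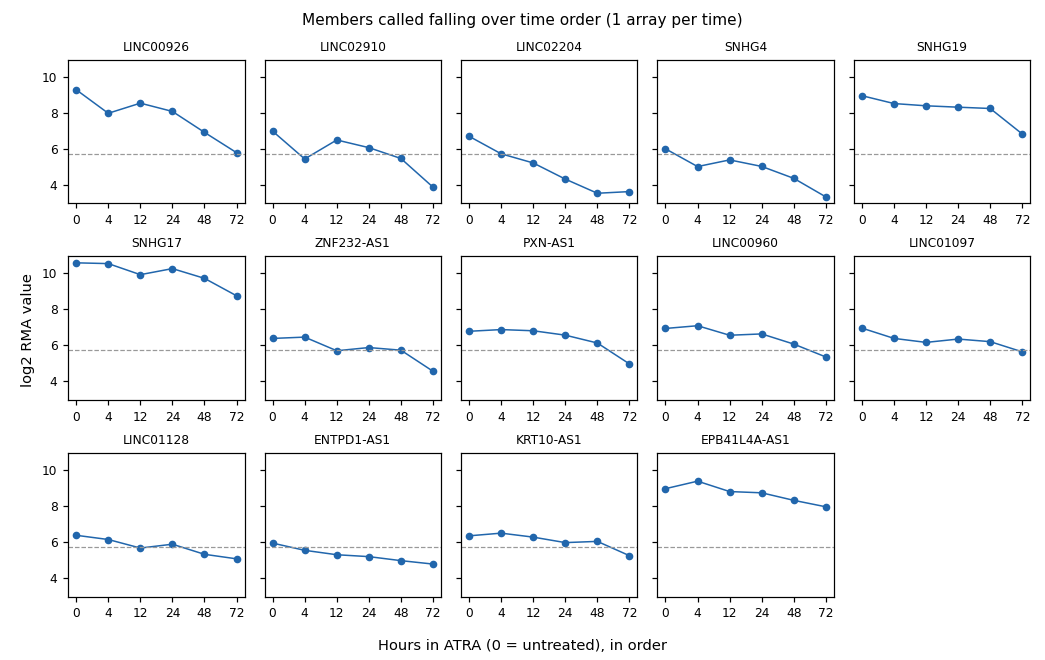
Log2 RMA level (vertical axis) of the 14 members that fell, in untreated cells (0) and at each time in ATRA, spaced by time order, with 1 array per point. The dashed line is the membership threshold of 5.74, and 10 of the 14 lie below it at 72 h.

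How far the calls rested on single arrays was examined by refitting. Without the 72 h array the fit called 8 of the 20 rising members and 1 of the 14 falling ones. The 8 were ANXA2R-AS1, ITGB2-AS1, LINC00847, LINC03014, MAP3K5-AS2, NINJ2-AS1, PSMB8-AS1 and PTPRN2-AS1, and the falling one was LINC02204. Without the untreated array 13 and 8 of these calls were made, without the 4 h array 12 and 7, and without the 12 h array 16 and 8.

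The spiked bioC control, added to the labelled sample, read 8.01 and 8.11 on the 0 and 12 h arrays and 6.88 to 7.17 on the others. With it as a covariate 10 of the rising and 9 of the falling calls were made. On the 4 arrays of lower bioC alone, 7 and 2 were. ANXA2R-AS1, ITGB2-AS1, LINC00847, MAP3K5-AS2, NINJ2-AS1 and LINC02204 were called in all of these fits. Over 15 other refits, with other scalings, probe sets, filters, time scale and left-out arrays but not the one on the lower bioC arrays, 7 rising members and 1 falling member (LINC02204) kept their call each time. The calls kept in the fewest refits were those of ZNF561-AS1 (4 of 15), LINC01097 (5), LINC02910 (6) and KRT10-AS1 (7). ZNF561-AS1 and LINC01097 lost their call whichever array was left out. RMA makes the distributions of the arrays alike, so a shift of most transcripts one way would be hidden.

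Antisense members were set beside the gene on the other strand. The 2 intronic members were set beside the gene they are named after, and those pairs are not antisense pairs. Of 65 antisense and intronic members, 61 had a partner with a value and 57 a partner in the trend fit. In 6 pairs both rose: ANXA2R, ITGB2, MAP3K5, NINJ2, NPTN and PSMB8 with their noncoding partners. The partner of NPTN is the intronic member NPTN-IT1. In 7 pairs only the noncoding member was called as rising and in 1, PAXIP1-AS2 with PAXIP1, the partner fell. In 2 pairs the antisense member fell and its partner rose, in 2 it fell with no call for the partner, and in no pair did both fall. The noncoding member had no call in 39 pairs, of which 4 had a rising partner, 4 a falling one and 31 none. For scale, 8.33% of all genes fitted rose and 9.86% fell. Whether partners shared a call more often than unpaired genes was not tested.

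ITGB2 had levels of 8.19, 8.75, 9.88, 10.16, 10.76 and 11.38 (slope 0.64 ± 0.05, adjusted p = 0.00047). ITGB2 was thus higher at 12 h, when ITGB2-AS1 was at 4.76 against 4.71 untreated on the probe set shown. The second probe set of ITGB2-AS1 was then 0.43 above untreated. PSMB8 had levels of 7.94, 8.19, 8.73, 9.28, 9.84 and 10.39 (slope 0.51 ± 0.04, adjusted p = 0.00050), and both partners of that pair were higher at every later time than at 0 h. NINJ2 had levels of 5.34, 6.75, 7.65, 8.19, 8.92 and 9.02, and its difference from untreated was above that of NINJ2-AS1 at every time.

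MAP3K5 and ANXA2R moved less than their antisense partners. MAP3K5 stood at 5.72, 5.39, 6.13, 6.24, 6.65 and 6.89, which is 2.24-fold higher at 72 h than untreated (adjusted p = 0.014), against 30.3-fold for MAP3K5-AS2. ANXA2R stood at 5.29 at 72 h and 4.35 untreated, a 1.92-fold difference (adjusted p = 0.039), against 12.6-fold for ANXA2R-AS1. NPTN was 1.84-fold higher and NPTN-IT1 2.29-fold.

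PTPRN2 took another course than PTPRN2-AS1. Its level was 8.29, 7.30, 6.99, 7.15, 7.79 and 8.70, lowest at 12 h, with no call (adjusted p = 0.65). The antisense member was above its untreated level on each of these arrays.

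The partners of TFAP2A-AS1, USP30-AS1 and RAB11B-AS1 had no call either. TFAP2A stood at 4.03 at 72 h against 3.79 untreated (adjusted p = 0.17), USP30 at 5.77 against 6.16 (adjusted p = 0.29) and RAB11B at 6.38 against 5.91 (adjusted p = 0.080). ATP2B1 was 3.66-fold higher at 72 h, with no call (adjusted p = 0.12). The difference in response between the partners was not tested.

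In 3 pairs the called directions were opposite. ENTPD1, which encodes the ectonucleotidase CD39, stood at 4.60, 4.92, 5.02, 5.62, 6.74 and 6.98 (slope 0.51 ± 0.06, adjusted p = 0.0030), while ENTPD1-AS1 was lower on each successive array. PXN, which encodes the focal adhesion protein paxillin, stood at 4.43, 6.48, 7.70, 6.98, 7.41 and 7.74 (adjusted p = 0.042), and most of its increase came by 12 h, before PXN-AS1 was lower than untreated. PAXIP1 stood at 7.35 at 72 h against 8.64 untreated (adjusted p = 0.049), with PAXIP1-AS2 at 5.76 against 4.40.

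Some partners rose beside members with no call. HLA-F, a nonclassical class I gene, was 4.10-fold higher at 72 h (adjusted p = 0.0076), with HLA-F-AS1 at 5.86 against 6.32 untreated. TNFRSF14, a receptor of the TNF family, was at least 5.86-fold higher (adjusted p = 0.0023), with TNFRSF14-AS1 at 5.86 against 5.11. HLA-F and TNFRSF14-AS1 were read by probe sets of the x_at type, which can share probes with other genes. The 72 h difference of HLA-F-AS1 minus that of HLA-F was -2.50, and -1.59 with the probe sets of each gene averaged. ELFN1-AS1 and ELFN1 were both lower at 72 h, by -2.24 and -1.23 on the log2 scale, and neither was called (adjusted p = 0.095 and 0.067). The strand and transcript that each probe set reads were taken from the annotation and were not tested.

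**Figure D5:**
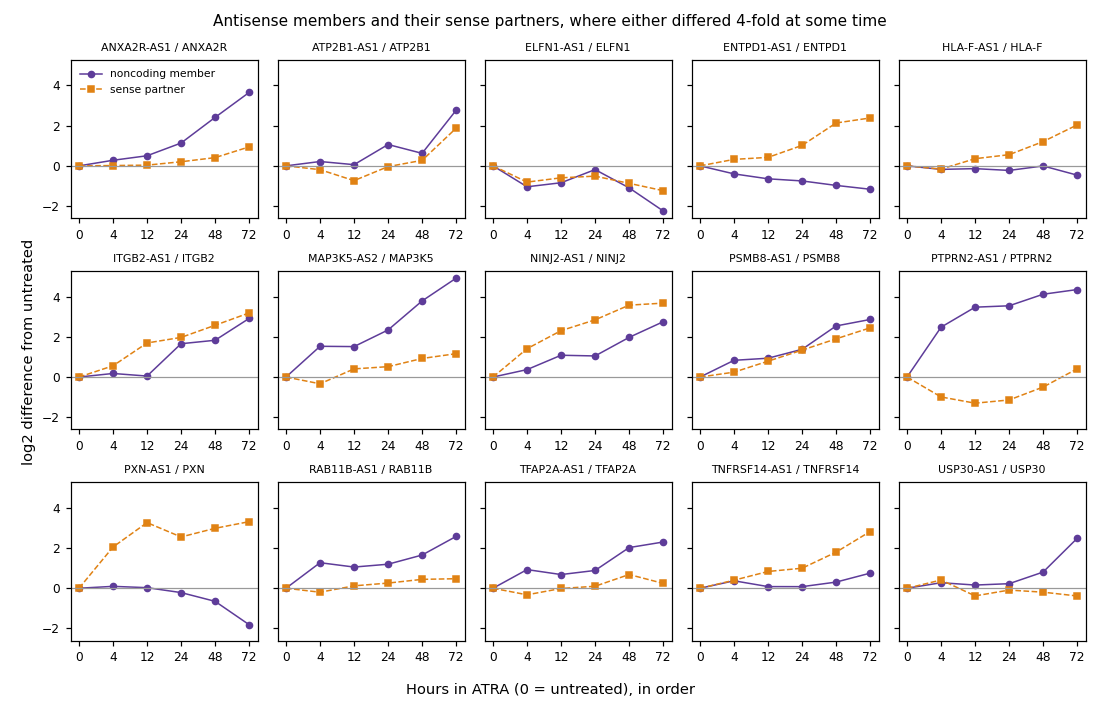
Log2 difference from the untreated array (vertical axis) by time in ATRA, spaced by time order, for the 15 pairs in which the noncoding member (purple circles) or its sense partner (orange squares) differed 4-fold or more at some time. ENTPD1 and PXN lie above 0 at 72 h with their antisense partners below it, and PTPRN2-AS1 lies above PTPRN2 at every time after 0 h.

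The 4 microRNA hosts had no call. MIR31HG stood at 8.07, 8.35, 7.88, 7.62, 7.74 and 7.90 (adjusted p = 0.35). MIR210HG, whose microRNA is induced by hypoxia, stood at 5.27, 4.70, 5.96, 5.58, 5.42 and 5.97 (adjusted p = 0.25), with values that went up and down between neighbouring times. MIR1-1HG and MIR1915HG differed by -0.26 and -0.04 at 72 h.

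Of the 71 members with no call, 55 spanned less than 2-fold over the 6 arrays, with a median range of 0.71 on the log2 scale. These spans are of the probe set that represents each gene. They include OIP5-AS1, with 8.89 at 72 h against 9.82 untreated, and LINC00623, with 8.87 against 9.74. Other kept probe sets of OIP5-AS1 differed more, by -1.70 and -1.33 on the log2 scale at 72 h. The remaining 16 members with no call spanned 2-fold or more. LINC01260 stood at 4.02, 3.97, 4.48, 4.05, 4.64 and 6.16 (adjusted p = 0.052), and most of its difference lay in the 72 h array.

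LINC01215 was lowest at 48 h, with levels of 6.20, 5.26, 4.58, 4.87, 4.35 and 4.91 (adjusted p = 0.094). NOP14-AS1 was higher at 4, 12 and 24 h, with 5.70, 5.69 and 5.76, than untreated, with 4.67, and stood at 4.79 at 72 h (adjusted p = 0.97). A line over time order does not describe such a course. LINC01963 and ELFN1-AS1 were 2.08 and 2.24 lower on the log2 scale at 72 h than untreated, and TSPOAP1-AS1 was lowest at 24 h, with 5.83 against 6.87.

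Neighbouring genes in RefSeq were looked up for 19 LINC and SNHG members, chosen because they were called or differed 2-fold or more at 72 h. Of 27 neighbours in the fit, 5 were called, 3 in the direction of the member's 72 h difference and 2 against it. ADA, the adenosine deaminase gene next to LINC01260, stood at 10.09 at 72 h against 6.85 untreated (adjusted p = 0.021). IFT57, an intraflagellar transport gene next to LINC01215, stood at 5.85 against 8.81 (adjusted p = 0.0068). Over the 13594 genes fitted 8.33% rose and 9.86% fell, so 5 of 27 is near that background.

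Other host genes of small nucleolar RNAs were counted beside the SNHG members. Of 45 listed, 22 had a value and 21 were in the fit, of which 6 fell and 1 rose. The median 72 h difference of those in the fit was -0.37. Over all genes fitted it was -0.06, and 9.86% fell and 8.33% rose. Over the 8628 genes at the members' level threshold it was -0.16, and 13.9% fell and 11.7% rose. Whether the list differs from these backgrounds was not tested. RCC1, the exchange factor of the GTPase Ran, stood at 7.11 at 72 h against 9.07 untreated (adjusted p = 0.016). NCL (nucleolin), HSPA9 and NAP1L4 were 1.19 to 1.33 lower on the log2 scale, and CHD8, a chromatin remodeller, was 1.20 higher. WDR43, a factor of ribosome assembly, was 1.47 lower with no call (adjusted p = 0.097).

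Other named long noncoding RNAs, none of them members, were counted too. Nearly all have names outside the symbol rule. MIRLET7BHG and LRRC75A-AS1 have names that fit it, and MIRLET7BHG reached at most 4.37, below the members' threshold. Of 43 listed, 23 were in the fit, of which 2 rose and 3 fell, with a median 72 h difference of 0.05. Of all genes fitted 8.33% rose and 9.86% fell, so these few calls are near the background and say nothing of the list. DANCR stood at 8.42 at 72 h against 11.11 untreated (adjusted p = 0.027), DLEU1 at 6.03 against 8.77 (adjusted p = 0.025) and CRNDE at 6.91 against 9.07 (adjusted p = 0.028). TUG1 rose, with 9.82 against 9.0 (adjusted p = 0.021), as did RPPH1, the RNA of ribonuclease P, with 5.52 against 4.37 (adjusted p = 0.034). The gene table types these 2 as protein-coding and as ribonuclease P RNA, not as lncRNA. MALAT1, an abundant nuclear RNA, stood at 9.10, 7.42, 8.76, 8.44, 8.73 and 10.02, lowest at 4 h (adjusted p = 0.31).

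The cells were checked against marker lists. Of 6 neutrophil markers, 6 rose. Of 5 promyelocyte markers, 4 were in the fit and 2 fell: MPO, with 10.92 at 72 h against 12.90 untreated, and CTSG, with 4.40 against 6.83. PRTN3 lay above its untreated level of 10.76 on every ATRA array, with 11.07 at 72 h (adjusted p = 0.41), and AZU1 stood at 9.05 against 9.32 (adjusted p = 0.34). ELANE was at or below 3.32 on every array. All 4 monocyte markers were at or below 3.59, and none of 4 T and NK, 2 erythroid and 3 megakaryocyte markers with a value in the fit was called. Of 2 B cell markers in the fit CD79A rose, with 6.82 against 5.36. In such bulk RNA, a change in the share of cells of a kind and a change in RNA per cell cannot be told apart.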

How the data were processed

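Total RNA of NB4 cells was labelled and hybridised to 6 arrays, 1 per time, per the labels' protocols. The authors deposited log2 values, 1 per probe set and array, made with RMA per the submitters' processing notes. For the version, the background step and the genome build, the sources used here give nothing. RMA makes array distributions alike. The number of arrays limits the precision.

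Of 54675 probe sets, 41097 had 1 gene, 1801 several and 11777 none. Those with several genes were not used, among them 41 at the members' threshold with a name that fits the rule. Entrez identifiers gave 41037 probe sets their current symbol in the GRCh38.p14 gene table, used for names and neighbours. A gene was represented by its probe set of highest mean. The trend fit used lmFit and eBayes (trend = TRUE) of limma 3.58.1 under R 4.3.3 and was tested on simulated data. An end of a fold below 3.66 was set to 3.66 and the fold given as at least that value. Motif letters were searched in RefSeq promoters of GRCh38.p14. Beside the response element core, TTCNNNGAA was found in 6.90% of member promoters and 7.66% of all, TATAAA in 5.75% and 11.5%, and direct repeats of AGGTCA or GGGTCA or AGTTCA or GGTTCA spaced by 5, 2 or 1 bases in 0 member promoters, against 0.0883%, 0.0399% and 0.131% of all. All motifs were searched on both strands.

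Named members are all SNHG and microRNA host members, all called members, the largest differences at each time, the 5 of highest mean, those at the threshold and antisense pairs with a 4-fold difference. Members with a difference of 2-fold or more at 72 h outside that rule were named after their values were seen. The members and gene lists were chosen with earlier results of these data known. Nothing says that arrays came from separate cultures, and p-values measure the scatter of 6 arrays around a line. Alternatives were other scalings, probe set choices, filters, thresholds, baselines and left-out arrays.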

Additional observations from a re-analysis of the deposited data

How the results depend on the processing

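No paired analysis was possible because each group had 1 array. The 20 rising and 14 falling calls lay between 8 and 20 and between 2 and 15 when 1 array was left out. They numbered 12 rising with the bioC covariate, 7 and 2 on the arrays of lower bioC level (fewer arrays), 12 and 26 after a shift to equal controls without bioC, and 2 falling after a shift to all controls. The looser membership at the median gave 32 and 24, and the stricter one at the 90th percentile, with 24 members, gave 7 and 4. Counting only members at or above the threshold on all 6 arrays, a choice made after seeing the data, gave 1 and 4. Counts of 2-fold differences moved as follows, higher then lower. A 1.5-fold threshold gave 8 and 14 at 4 h, 14 and 14 at 12 h, 12 lower at 24 h, and 20 and 22 at 48 h. A 3-fold threshold gave 1 and 0 at 4 h, 1 and 1 at 12 h, 3 and 1 at 24 h, 4 lower at 48 h and 10 lower at 72 h. The shift to all controls gave 23 and 0 at 4 h, 2 higher at 12 h, 35 and 1 at 24 h, 52 and 2 at 48 h, then 33 higher with 10 lower by 72 h. The shift without bioC gave 2 and 14 at 4 h, 3 higher at 12 h, 3 and 14 at 24 h, 20 lower at 48 h and 38 lower at 72 h. These shifts moved each array by up to 1.0 and -0.56 on the log2 scale. The shift to all controls used the median of 18 control probe sets. The shift without bioC used the mean of the others, so the 2 differ in more than bioC. Against the 4 h array the counts were 2 and 0 at 12 h, 3 and 1 at 24 h and 4 lower at 48 h, and against the mean of untreated and 4 h they were 1 and 1, then 4 and 1, then 4 lower. The mean of all probe sets gave 3 higher at 12 h, and 7 and 2 at 24 h. Cyclic loess gave 5 lower at 4 h. Membership at the median gave 5 lower at 4 h, 11 lower at 48 h, with 35 higher and 35 lower at 72 h. Membership at the 90th percentile gave 1 lower at 4 h, 3 and 0 at 12 h, 6 and 1 at 24 h, 5 and 1 at 48 h, then 8 and 8 by 72 h. Another 90 of these counts were within 1.5 times the reported ones. The cause of the moves was not tested. Of 18 members with several kept probe sets, 14 had 72 h differences of the same sign in each.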
